A study of Mus musculus with 20 samples.

Results

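Breast tumors with high expression of fibroblast genes were compared with tumors in which these genes were low. Each of 20 tumors received a fibroblast score, the mean z-score of log2(CPM + 1), where CPM is the read count scaled to library size, over the collagen genes Col1a1, Col1a2 and Col3a1 and the proteoglycan gene Dcn. Tumors were thus selected on measured expression of these 4 genes. The 6 tumors with the highest scores were called fibroblast-rich and the 6 with the lowest scores fibroblast-poor, so that 12 of 20 tumors were compared and 8 lay in the middle. All 20 tumors arose in female [BALB/c-neuT x FVB/J] F1 mice, 1 tumor per mouse, in which a transgene of activated rat Her2/neu inherited from the BALB/c parent drives mammary tumors, and the groups compared share this genotype. Ages and treatments are not given in the labels. The labels also carry the words Lo and Hi, which they do not explain, and the fibroblast-rich tumors comprised 2 Lo and 4 Hi tumors against 3 Lo and 3 Hi fibroblast-poor tumors. RNA came from a small frozen piece of each tumor, so that a value describes that piece.

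Fibroblasts build the connective tissue of the mammary gland and of its tumors. They secrete fibrillar collagens, the proteoglycans that space collagen fibrils, the microfibrils of elastic tissue and the enzymes that trim and crosslink them, and they also release chemokines and growth factors that act on epithelial and immune cells. In RNA from a whole piece of tumor, more cells of a type and more RNA per cell cannot be told apart.

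The 4 genes of the score chose the tumors, and their values are given as a description. The scores were 1.61 in Lo 4, 1.14 in Hi 6, 1.11 in Hi 3, 0.772 in Hi 9, 0.738 in Hi 5 and 0.702 in Lo 2, and the next tumor, Hi 8, had 0.531. At the other end the scores were -2.05 in Lo 3, -1.79 in Hi 11, -0.988 in Hi 4, -0.894 in Lo 8, -0.809 in Lo 7 and -0.550 in Hi 2, and Hi 10, just outside, had -0.461. The scores formed a continuous series with no wide gap at either limit. Col3a1, a fibrillar collagen of soft tissue, averaged 809 CPM ± 170 (SD, n = 6) in fibroblast-rich and 319 ± 55.9 (SD, n = 6) in fibroblast-poor tumors. The corresponding means were 607 and 293 CPM for Col1a2, 556 and 293 CPM for Col1a1, and 41.6 and 18.3 CPM for Dcn, which binds collagen fibrils. The groups differed by a factor of 1.90 to 2.54 in these means, so that fibroblast-poor tumors still expressed each gene.

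**Figure D1:**
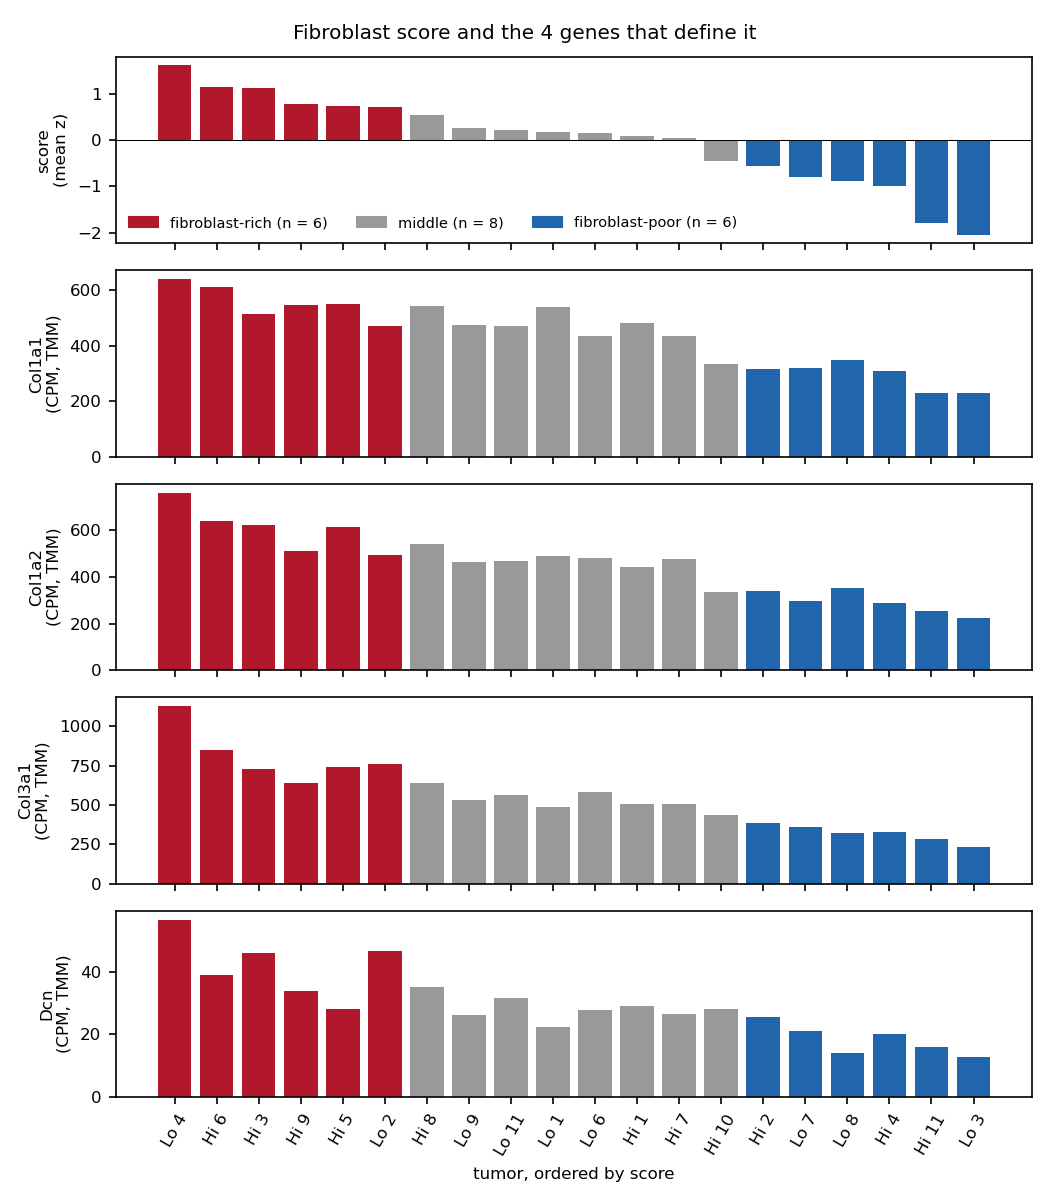
Fibroblast score (mean z-score, top) and TMM-scaled CPM of the 4 genes that define it (below) in 20 tumors ordered by score, with fibroblast-rich tumors in red, middle tumors in gray and fibroblast-poor tumors in blue. The bars fall gradually from Lo 4, with a score of 1.61, to Lo 3, with -2.05.

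5 promoters are shown because their genes stand for the collagens of the score, the microfibrils, the fibril-spacing proteoglycans and skeletal muscle in the results that follow. Each is the 250 bases before the RefSeq start site on build GRCm38.p6, and capitals mark matches on either strand to the TATA box TATAAA, to the CCAAT box or to the GC box GGGCGG. The windows are Col1a2 at chr6:4505368-4505617 on the plus strand, Col3a1 at chr1:45311288-45311537 on the plus strand, Fbn1 at chr2:125506439-125506688 on the minus strand, Ogn at chr13:49607765-49608014 on the plus strand, Mylpf at chr7:127211358-127211607 on the plus strand.
Col1a2: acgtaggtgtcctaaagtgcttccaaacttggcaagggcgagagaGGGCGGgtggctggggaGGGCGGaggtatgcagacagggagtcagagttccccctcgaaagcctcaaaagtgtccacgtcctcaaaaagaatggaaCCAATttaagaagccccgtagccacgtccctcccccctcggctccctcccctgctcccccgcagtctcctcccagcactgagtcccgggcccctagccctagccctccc
Col3a1: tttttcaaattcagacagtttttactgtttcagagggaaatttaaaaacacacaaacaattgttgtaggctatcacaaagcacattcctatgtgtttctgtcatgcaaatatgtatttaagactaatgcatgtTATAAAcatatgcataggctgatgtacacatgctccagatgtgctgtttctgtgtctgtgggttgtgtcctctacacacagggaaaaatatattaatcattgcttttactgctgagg
Fbn1: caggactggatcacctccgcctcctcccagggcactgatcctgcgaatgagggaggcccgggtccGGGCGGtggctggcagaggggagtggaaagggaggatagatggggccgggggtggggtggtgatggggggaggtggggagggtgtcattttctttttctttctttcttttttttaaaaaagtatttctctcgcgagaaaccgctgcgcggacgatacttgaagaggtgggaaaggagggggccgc
Ogn: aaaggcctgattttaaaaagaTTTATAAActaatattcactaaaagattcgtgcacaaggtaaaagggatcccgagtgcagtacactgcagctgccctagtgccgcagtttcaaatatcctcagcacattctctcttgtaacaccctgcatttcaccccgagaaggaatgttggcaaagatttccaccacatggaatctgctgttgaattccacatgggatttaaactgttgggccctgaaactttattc
Mylpf: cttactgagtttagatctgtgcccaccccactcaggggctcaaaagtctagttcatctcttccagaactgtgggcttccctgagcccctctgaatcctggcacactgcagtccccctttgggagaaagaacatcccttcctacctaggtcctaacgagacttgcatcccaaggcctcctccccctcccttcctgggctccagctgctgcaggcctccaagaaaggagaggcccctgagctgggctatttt
TATAAA was present in 17.1% of 111 windows of the 91 genes with a window among the 126 higher in fibroblast-rich tumors, and in 7.04% of 14954 windows of all genes tested. GGGCGG was present in 23.4% and 53.6%, CCAAT in 32.4% and 34.4% and the CArG box in 1.8% and 1.14%, respectively. In Ogn the matches on the plus and minus strands overlap, and in the Mylpf window none of these letters was found. These shares are a description of the windows and were not tested.

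Of 18937 genes tested with edgeR, 126 were higher in fibroblast-rich tumors (0.665%) and 1 was lower (0.00528%) at an adjusted p under 0.05. The median log2 fold change of all genes tested was near 0, at -0.0039, and 48.7% of them were positive. Every fibroblast-rich tumor lay above every fibroblast-poor tumor for 134 genes (0.708%) and below for 13 (0.0686%), and 1147 genes (6.06%) had an unadjusted p under 0.05. The number of genes called higher changed with the tumors included: without Hi 6 it was 26, without Lo 3 it was 31, without Lo 4 it was 36, without Hi 2 it was 47, without Hi 11 it was 52, without Hi 4 it was 55 and without Hi 9 it was 61. Without any of the other 5 tumors it was between 107 and 183, the highest without Hi 5. With log2 of the summed CPM of a skeletal muscle list as a covariate, edgeR called 0 genes, with 511 at an unadjusted p under 0.05. The list holds Myh1, Myh2 and Mylpf, which are among the 126. Of the 126 genes, 124 had a positive fold change in this fit and 101 an unadjusted p under 0.05. They had been called on the same 12 tumors, so these counts are no separate evidence. DESeq2 on the original 12 tumors called 286 genes higher and 13 lower.

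Skeletal muscle genes showed the largest differences. The muscle list sums 12 genes of contraction and energy supply, and its total was 1449 CPM in Hi 6, 814 in Lo 4, 251 in Hi 9, 143 in Lo 2, 103 in Hi 3 and 11.4 in Hi 5. It was between 8.12 and 13.2 CPM in fibroblast-poor tumors except Lo 7, with 84.7. Thus 5 of 6 fibroblast-rich, 1 of 6 fibroblast-poor and 3 of 8 middle tumors exceeded 50 CPM, and the groups overlapped. All 12 list members had a positive fold change, with a median of 4.5 on the log2 scale, and 3 were called, namely Myh2 and Myh1, myosin heavy chains of fast fibers, and Mylpf, their light chain. Mylpf ranged from 0.745 to 77.6 CPM with a median of 9.6 in fibroblast-rich and from 0.359 to 4.36 with a median of 0.639 in fibroblast-poor tumors (log2 fold change 4.37 ± 0.93 SE, adjusted p = 0.0473). Outside the list, the giant sarcomere proteins Ttn and Neb rose by 4.43 ± 0.93 and 3.61 ± 0.71 (SE) on the log2 scale, and the calcium release channel Ryr1 by 3.54 ± 0.73. Acta1, the actin of skeletal muscle, did not pass the threshold (5.01 ± 1.19, adjusted p = 0.0833). Muscle RNA therefore moved with the groups, and its part in the other differences was not tested beyond the covariate and the tumors left out.

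**Figure D2:**
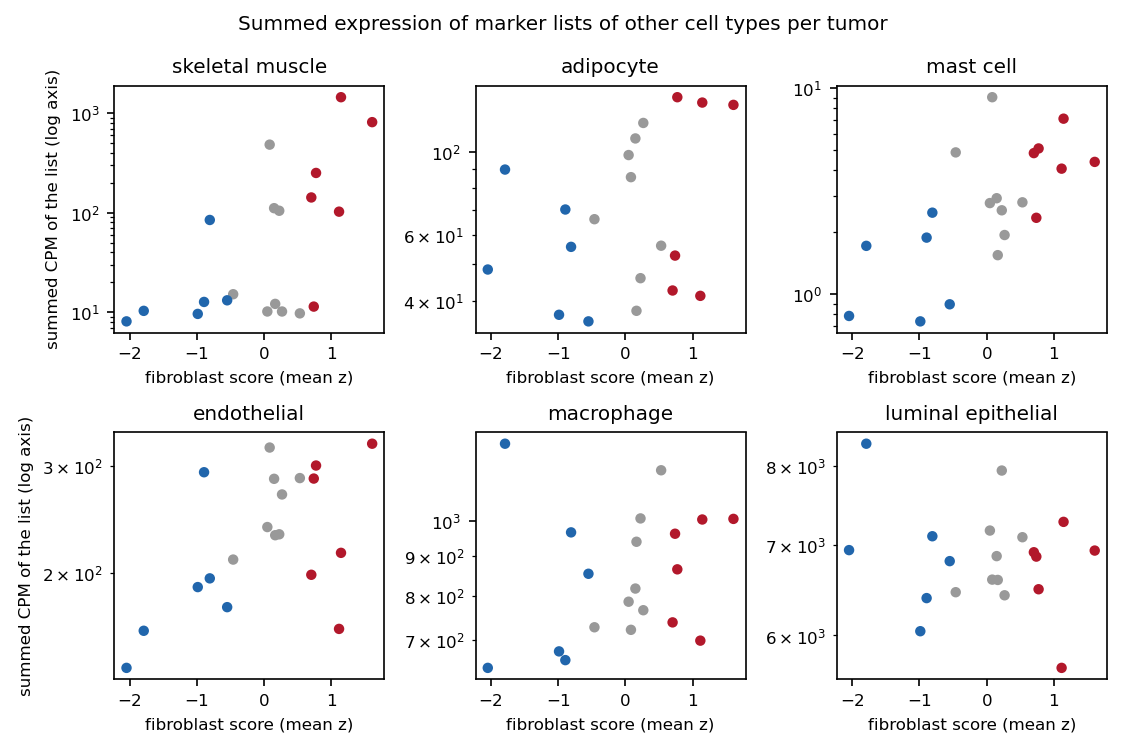
Summed CPM (log axis) of marker lists of 6 other cell types against the fibroblast score, 1 point per tumor, with fibroblast-rich tumors in red, middle tumors in gray and fibroblast-poor tumors in blue. The skeletal muscle sum exceeds 50 CPM in 5 of 6 fibroblast-rich tumors and in 1 of 6 fibroblast-poor tumors, while the luminal epithelial sums overlap.

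Of 14 tested members of the fibroblast identity list, 5 were called higher. All 14 had a positive fold change, with a median of 0.69 on the log2 scale. Scored on this list, the fibroblast-rich tumor Lo 2 had -0.0089 and lay in the middle. Hi 8, with 0.464, took its place among the 6 highest, and the same exchange occurred with a score from the 3 collagens. Dpt, an extracellular protein of dermal and adventitial fibroblasts, ranged from 8.17 to 34.1 CPM (median 14.3) in fibroblast-rich and from 2.24 to 8.28 (median 3.08) in fibroblast-poor tumors (log2 fold change 1.97 ± 0.39 SE, adjusted p = 0.0321). Pi16, a marker of adventitial fibroblasts, was 13.4 to 22.9 CPM against 4.89 to 11.8 CPM, without overlap (1.06 ± 0.19, adjusted p = 0.0249). The transcription factor Prrx1, the surface protein Thy1 and the secreted serpin Serpinf1 rose by 0.71, 0.64 and 0.72 on the log2 scale. Lum, a keratan sulfate proteoglycan, had 22.8 CPM at the median against 11.8, but did not pass the threshold (adjusted p = 0.16), and Gas1, a membrane protein of quiescent fibroblasts, had medians of 20.6 and 19.6 CPM.

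Among 14 other collagens tested, 12 had a positive fold change, with a median of 0.62, and 5 were called. Col5a1, which starts and limits collagen fibrils, was 67.8 to 133 CPM with a median of 76.0 in fibroblast-rich tumors and 36.4 to 53.6 CPM with a median of 38.7 in fibroblast-poor tumors, and the groups did not overlap. Its log2 fold change was 1.03 ± 0.16 (SE, adjusted p = 0.0109), but it overlaps the annotated gene Gm13372, which was called too, and the counts of both are uncertain. The beaded-filament collagens Col6a1 and Col6a2 rose by 0.81 and 0.89, Col14a1, which binds fibril surfaces, by 0.77 and Col5a2 by 0.66. The abundant Col11a1 and Col16a1 did not pass the threshold, with log2 fold changes of -0.06 and -0.02. In the basement membrane list, 1 of 22 genes was called, the laminin chain Lama2 (0.76 ± 0.14 SE, adjusted p = 0.0249), while Col4a1 and Col4a2, the network collagens of basement membranes, had -0.01 and -0.11.

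Of 19 proteoglycans and glycoproteins of the matrix, 17 were positive, with a median of 0.71, and 8 were called, the highest count of any list. Lists differ in size, and over all genes tested 0.665% were called higher and 48.7% were positive. Ogn, a small proteoglycan of fibrils, reached 15.3 CPM in Lo 2 and was between 4.15 and 8.92 in the other fibroblast-rich tumors, against 0.736 to 2.98 in fibroblast-poor tumors (2.02 ± 0.35 SE, adjusted p = 0.0203). Tnxb, a tenascin of loose connective tissue, rose by 1.87 ± 0.40 and Nov, a matricellular protein, by 1.39 ± 0.22 on the log2 scale. Postn, which links collagen to other matrix proteins, was 193 to 376 CPM against 111 to 162 CPM, without overlap (0.81 ± 0.15, adjusted p = 0.0278). Fn1, the fibronectin gene, rose by 0.71, and Bgn, Thbs2 and Sparc by 0.78, 0.76 and 0.67. Thbs1 and the cartilage protein Comp did not pass the threshold, with log2 fold changes of -0.15 and -0.03.

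Of 15 elastic fiber genes tested, 4 were called higher, 12 were positive and 3 were not, with a median of 0.62. Fbn1, the main microfibril protein, ranged from 86.5 to 147 CPM with a median of 100 in fibroblast-rich and from 44.3 to 66.7 CPM with a median of 54.0 in fibroblast-poor tumors, without overlap (0.95 ± 0.14 SE, adjusted p = 0.0109). The microfibril-associated proteins Mfap4, Mfap5 and Mfap2 rose by 1.25, 0.88 and 0.87 on the log2 scale. Ltbp2 and Ltbp3, of the family named latent TGF-beta binding proteins, did not pass the threshold, with 0.52 and -0.08. In the list of collagen processing, 4 of 25 genes were called and the median fold change was 0.08. Lox, which oxidizes lysines to crosslink collagen and elastin, was 38.8 to 73.7 CPM against 24.0 to 31.2 CPM (0.89 ± 0.13, adjusted p = 0.0109), and its relative Loxl1 rose by 0.86. P4ha3, a prolyl hydroxylase subunit, rose by 1.18 and Pcolce, an enhancer of procollagen cleavage, by 0.60. The collagen chaperone Serpinh1 and P4hb, a general folding enzyme, did not pass the threshold, with 0.07 and -0.14.

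**Figure D3:**
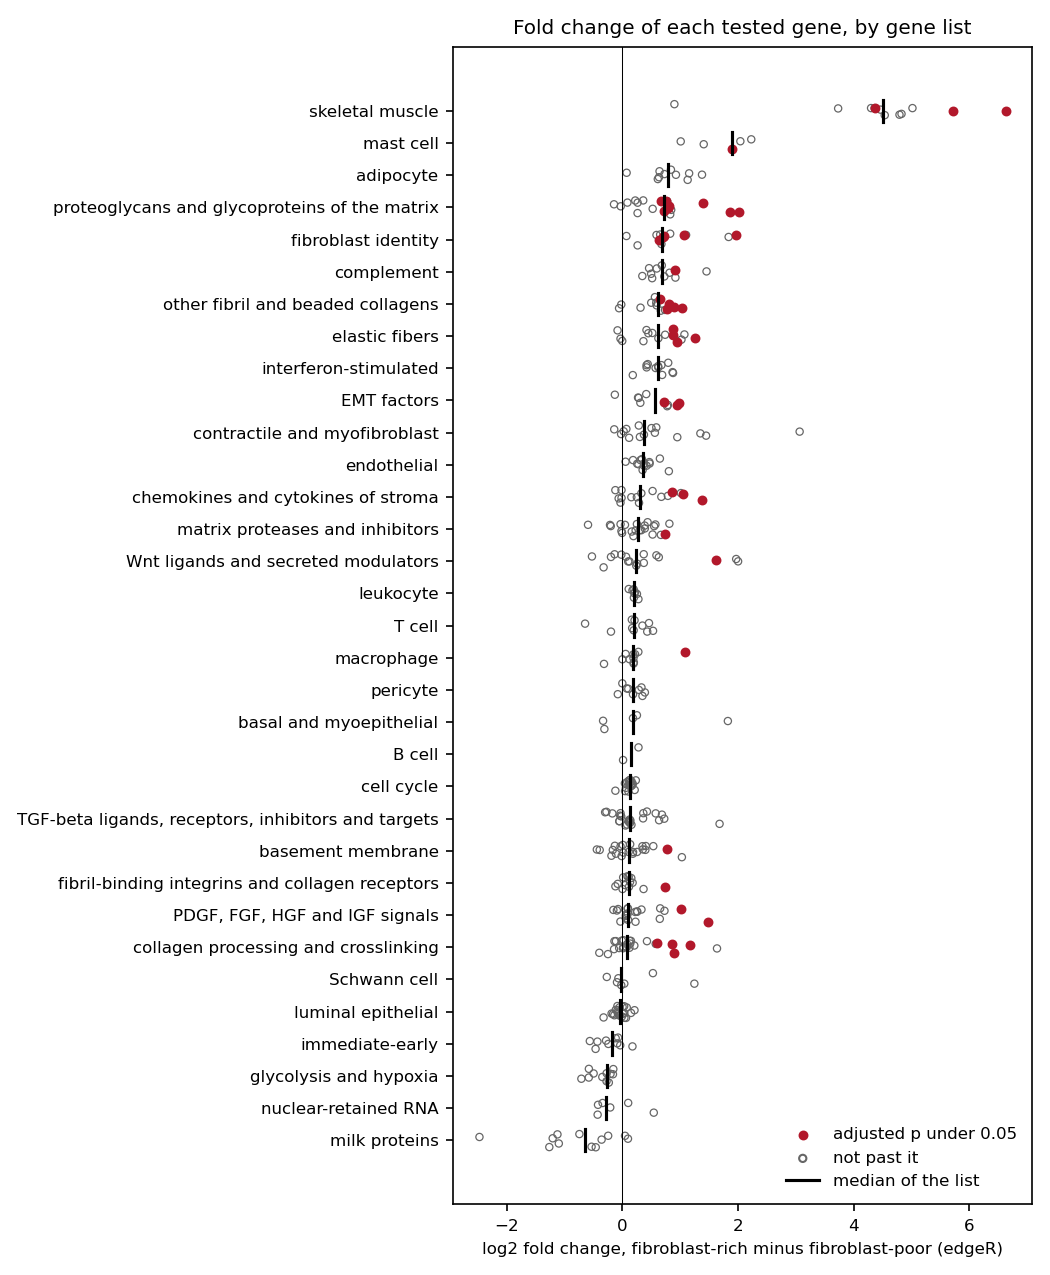
Log2 fold change (fibroblast-rich minus fibroblast-poor) of each tested gene in 33 lists ordered by their median (black bars), with filled red points at an adjusted p under 0.05 and open points not past it. Skeletal muscle has the highest median, 4.5, and the list of matrix proteoglycans and glycoproteins holds 8 called genes.

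Signals and receptors of the stroma changed in few members. In the list of PDGF, FGF, HGF and IGF signals, 2 of 22 genes were called. Igf1, a growth factor made by stromal cells, was 7.99 to 19 CPM against 4.38 to 7.19 CPM, without overlap (1.01 ± 0.19 SE, adjusted p = 0.0249), and Igfbp6, which binds IGF2, rose by 1.48 ± 0.24. Of 17 Wnt ligands and modulators, Sfrp2, a secreted Wnt modulator, was called (1.61 ± 0.28, adjusted p = 0.0219). None of 25 genes of the TGF-beta list was called by edgeR, with a median of 0.12. The collagen receptor kinase Ddr2 rose by 0.73, whereas Ddr1, its epithelial relative, had -0.12 (adjusted p = 0.968).

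Of 16 stromal chemokines and cytokines, 11 were positive and 3 were called, namely Ccl2, Ccl7 and Ccl8, which attract monocytes, with log2 fold changes of 0.86, 1.05 and 1.38. Ccl8 was 20.5 to 41.8 CPM against 5.60 to 17.4 CPM, without overlap. In the macrophage list 1 of 11 genes was called, the mannose receptor Mrc1 (1.09 ± 0.16 SE, adjusted p = 0.0109), and the list had a median of 0.19. Lyz2, a lysozyme of myeloid cells, and Cd14, a receptor for bacterial lipids, did not pass the threshold, with 0.19 and -0.32. Clec10a, a lectin of macrophages and dendritic cells, and the chemokine Ccl6 rose by 1.69 and 1.82. Further genes known from resident tissue macrophages were chosen after their values were seen, so that no count over them is given: F13a1 was 21.1 to 40.6 CPM against 6.99 to 13.5 CPM (1.47 ± 0.20, adjusted p = 0.00982), and Lyve1, which lymphatic vessels also express, rose by 2.71 ± 0.46.

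**Figure D4:**
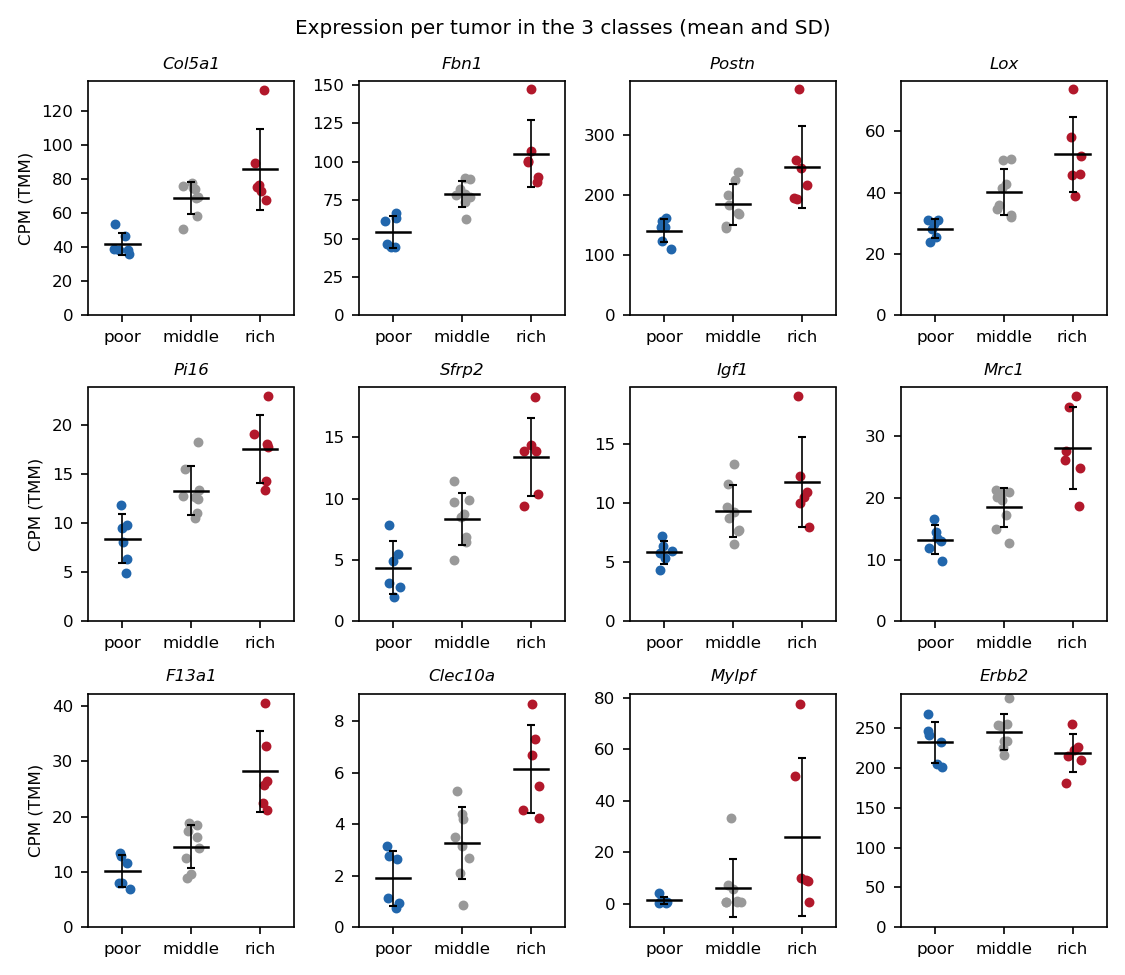
TMM-scaled CPM of 12 genes in fibroblast-poor (blue, n = 6), middle (gray, n = 8) and fibroblast-rich (red, n = 6) tumors, 1 point per tumor, with the mean as a black bar and the SD as whiskers. Fbn1 lies between 86.5 and 147 CPM in fibroblast-rich tumors, above the 44.3 to 66.7 CPM of fibroblast-poor tumors, while Erbb2 overlaps.

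Markers of other cells gave few calls. In the contractile and myofibroblast list 13 of 15 genes were positive, with a median of 0.37 and 0 calls. The pericyte, leukocyte and T cell lists also had 0 calls. Of 5 tested mast cell genes, all had a positive fold change and 1 was called, the chymase Cma1 (1.89 ± 0.38 SE, adjusted p = 0.036). All 10 adipocyte genes were positive with a median of 0.78, but 0 were called, and the summed CPM overlapped, at 41.2 to 140 against 35.2 to 89.7 CPM. All 14 endothelial genes were positive with a median of 0.36 and 0 were called. In the luminal epithelial list of 22 genes 0 were called and the median was -0.05, and Epcam, an adhesion protein of epithelial cells, ranged from 1066 to 1416 CPM against 1034 to 1598 CPM. Erbb2, the mouse gene related to the transgene, was 181 to 255 CPM against 200 to 267 CPM (-0.09 ± 0.09, adjusted p = 0.998). Whether reads of the rat transgene were counted at Erbb2 was not tested. Of 18 cell cycle genes 17 were positive, with a median of 0.13 and 0 calls. Mki67 had a log2 fold change of 0.08, with overlapping ranges and medians of 346 CPM in fibroblast-rich and 353 CPM in fibroblast-poor tumors. The 11 genes of glycolysis and hypoxia were all negative, with a median of -0.27 and 0 calls. Of 12 milk protein genes 2 were positive, with a median of -0.64 and 0 calls. Medians near those of the matrix lists also occurred elsewhere. All 11 complement genes were positive, with a median of 0.68 and 1 call, and all 12 interferon-stimulated genes, with a median of 0.62 and 0 calls. The only gene called lower was Isoc2b, at 1.4 to 2.68 CPM against 3.52 to 4.91 CPM (-0.77 ± 0.17, adjusted p = 0.0477).

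The 8 middle tumors were not used to form the groups, although their values entered the z-scores. Their scores were 0.531 in Hi 8, -0.461 in Hi 10 and between 0.0475 and 0.266 in the others. The slopes over them therefore rest mostly on Hi 8 and Hi 10. Over them, edgeR called 0 genes for a slope on the score, with 818 at an unadjusted p under 0.05. Of the 126 genes higher in fibroblast-rich tumors, 83 (65.9%) had a positive slope there, against 49.8% of all genes tested. In the identity list 13 of 14 genes had a positive slope, with a median of 0.49 log2 CPM per unit of score, and in the elastic fiber list 11 of 15, with a median of 0.37. In the list of other collagens 10 of 14 genes were positive, with a median of 0.51, and in the macrophage list 10 of 11, with a median of 0.45. The macrophage gene without a positive slope was Mrc1 (-0.09), the only member of that list called between the groups. The proteoglycans and glycoproteins of the matrix, the list with the most calls, had a median slope near 0, with 11 of 19 genes positive by edgeR (median 0.03) and 9 of 19 by least squares on log2 CPM (median -0.0013). In the mast cell list 1 of 5 genes had a positive slope. For skeletal muscle 1 of 12 genes was positive by edgeR (median -1.73) and 4 of 12 by least squares (median -0.44). The list median was thus negative by both, opposite to the difference between the groups, and only for single genes did the direction depend on the estimator. Ttn had -1.15 by edgeR and 0.09 by least squares, and Mylpf -1.86 and 0.63. Ogn, Tnxb, Ccl6, Clec10a, Mrc1, Lyve1 and F13a1 had negative slopes by both estimators.

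**Figure D5:**
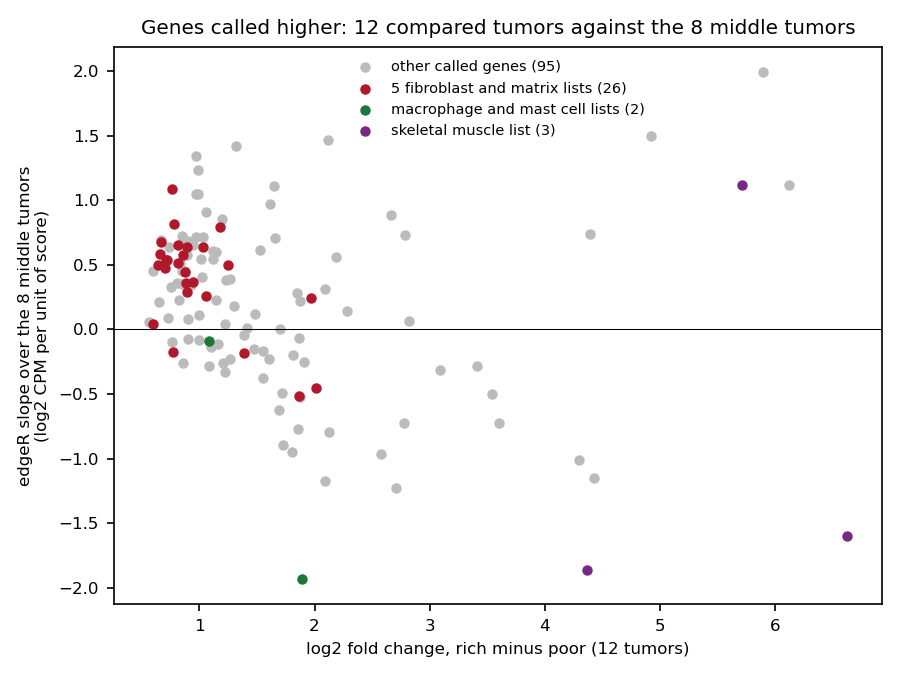
Slope on the fibroblast score over the 8 middle tumors (log2 CPM per unit of score, edgeR) against the log2 fold change between fibroblast-rich and fibroblast-poor tumors, for the 126 genes called higher, colored by gene list. Of these, 83 lie above the horizontal line at 0.

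Library measures were compared with two-sided exact permutation tests over 924 splits, which cannot give a p below 0.00216. Total counts averaged 48635700 in fibroblast-rich and 54511000 in fibroblast-poor tumors (adjusted p = 0.367), and the share of counts at Yam1 and AY036118, a ribosomal RNA locus, averaged 16.9% and 15.6% (adjusted p = 0.539). For each chromosome, the median log2 CPM of its genes, each relative to its median over 20 tumors, was taken minus that of all autosomal genes. This value differed for 0 of 20 chromosomes, with the lowest exact permutation p at chromosome 8 (p = 0.0606, adjusted p = 0.926). Within the Lo tumors alone, 119 genes rose with the score and 2 fell, and within the Hi tumors 13 rose and 1 fell. The difference between these slopes passed the threshold for 0 of 20987 genes in edgeR, with 508 at an unadjusted p under 0.05.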

How the data were processed

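RNA from 20 tumors, 1 per mouse, was prepared as TruSeq mRNA libraries and sequenced in paired-end reads trimmed to 100 bases. The deposited values are raw read counts by gene, with a column for each tumor and nothing pooled. The submitters' processing notes name TopHat2 2.0.12, featureCounts 1.4.4 and mm10. Strand setting and annotation release are not given in the sources used here, so overlapping, antisense and near-identical genes are uncertain. Reads of both strains were aligned to 1 reference. Total counts ranged from 38765682 to 65465755 per tumor.

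Yam1 and AY036118 were left out of the totals. The 2 groups were compared with edgeR 4.0.16 in R 4.3.3 (filterByExpr, TMM factors from all 20 tumors, quasi-likelihood test, Benjamini-Hochberg adjustment over all genes tested, threshold 0.05). DESeq2 1.42.0 and other scalings, filters, scores, group sizes, covariates and tumors left out were alternatives. Other steps used Python 3.11.15. Tested on simulated data for this comparison (18941 genes, 200 changed by 1 on the log2 scale), edgeR recovered 180 with 11 false calls.

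The comparison, the gene lists and their members were chosen with earlier results of these data known. Each mouse gave 1 tumor, so the spread is between animals. Genes named were Erbb2, the 12 largest rises and 10 largest falls among called genes whose mean log2 CPM reached 1, and, per list, up to 4 called genes and the 2 most abundant genes not called. F13a1, Lyve1, Cd209f, Cd5l, Pf4, Mgl2 and Gm13372, and further called members of a list, were added after their values were seen. A shorter set of named genes, from which 17 that often changed sign had been removed, was tried and given up, and all 120 are used in the counts of changed signs. Slopes over the middle tumors were first taken by least squares and then, for all results, from edgeR, and the least-squares values are given for the muscle and the proteoglycan and glycoprotein lists, Ttn and Mylpf.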

Additional observations from a re-analysis of the deposited data

Results flagged for a closer look

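A gap test within groups of 6 tumors (Dixon's test) was run for 248 groups, of which 23 had a tumor standing apart, and chance gives about 1 in 20 groups, or 12.4. In the fibroblast-poor tumor Lo 7, this held for Ttn at 10.3 CPM (others 0.882 to 1.66), Mylpf at 4.36 CPM (others 0.359 to 1.16), Myh1 at 2.4 CPM (others 0.0448 to 0.896), Acta1 at 15.5 CPM (others 0.426 to 1.23) and Myh4 at 17.2 CPM (others 0.0452 to 1.21). In the fibroblast-rich tumor Lo 4, this held for Isoc2b at 1.4 CPM (others 2.21 to 2.68), Col5a1 at 133 CPM (others 67.8 to 89.6), Nov at 28.4 CPM (others 11.9 to 17), Postn at 376 CPM (others 193 to 258), Fbn1 at 147 CPM (others 86.5 to 107), Rgs5 at 130 CPM (others 59.6 to 84.7) and Serping1 at 81.5 CPM (others 40.1 to 54.6). In the fibroblast-poor tumor Lo 3, this held for Isoc2b at 4.91 CPM (others 3.52 to 3.98) and Loxl1 at 12.3 CPM (others 17.8 to 20.9). In the fibroblast-rich tumor Lo 2, this held for Serpinh1 at 585 CPM (others 403 to 456), Cxcl14 at 51.6 CPM (others 82.8 to 99.9) and Gm26917 at 2055 CPM (others 628 to 1159). In the fibroblast-rich tumor Hi 5, this held for Ltbp2 at 569 CPM (others 209 to 322). In the fibroblast-poor tumor Lo 8, this held for Plvap at 50.4 CPM (others 18.6 to 29.1) and Nr4a1 at 211 CPM (others 111 to 144). In the fibroblast-poor tumor Hi 4, this held for C1s1 at 12.5 CPM (others 6.49 to 8.17). In the fibroblast-poor tumor Hi 2, this held for Ddr1 at 199.7 CPM (others 238 to 253). In the fibroblast-rich tumor Hi 6, this held for Egr1 at 255 CPM (others 101 to 122).

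The skeletal muscle genes standing apart were all high in Lo 7, the fibroblast-poor tumor with the highest muscle sum, 84.7 CPM. Lo 4, the tumor with the highest fibroblast score, stood above the other fibroblast-rich tumors for several matrix genes, and without it 36 genes were called higher.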

How the results depend on the processing

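Of 4174 gene values over all alternatives, 232 had the opposite sign, 22 for 20 called genes and 210 for 46 genes not past the threshold, most of them near 0. In 881 further values a called gene kept its sign but was no longer called, and in 24 a gene not called became called. Among the called genes named here, such a loss of the call ranged from 4 of 34 alternatives for Lrrc17 to 30 of 34 for Isoc2b. The number of genes higher, 126, became 286 with DESeq2, 26 at a mean CPM of at least 5, 55 with 5 against 5 tumors, 17 with 8 against 8 and 393 as a slope over 20 tumors; 21, 11, 61 and 61 with scores from TMM values, Dcn, the 3 collagens or the identity list (the last 2 gave the same groups); 13 within Hi tumors; and 0 over the 8 middle tumors. The number lower, 1, became 13 with DESeq2, 2 without a filter, 8 over 20 tumors, 2 within Lo tumors and 0 in the fits with CPM of at least 5, 8 against 8, totals without TMM, the other scores, the Lo or Hi covariate, the locus covariate and the middle tumors. Leaving out 1 tumor gave 26 to 183 higher and 0 to 1 lower. The labels' numbers formed 3 pairs between the groups, with correlations of -0.21 to 0.06, which cannot show what same-numbered tumors share beyond the number. With the replicate block 0 genes were higher and 0 lower in edgeR, with 950 at an unadjusted p under 0.05. Only these 3 pairs inform that comparison, so it had little power and its lack of calls cannot be read. Chosen after seeing the data, the muscle covariate and leaving out Hi 6 and Lo 4 each gave 0 and 0 (511 and 771 unadjusted), the locus covariate gave 88 higher and the muscle covariate over 20 tumors 97. The mast cell list had no gene at a mean CPM of at least 5. The cause of these changes was not tested, except that some settings test fewer tumors or genes.

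Log2 values with the opposite sign, by setting, follow. With DESeq2 with its size factors, they were Cd79a -0.00077. With library totals without TMM, they were Cd79a -0.0015. With 5 against 5 tumors, they were Col16a1 0.12, Serpinh1 -0.011, Ltbp3 0.013, Mmp15 0.037, Cd79a -0.12, Epcam -0.014. With 8 against 8 tumors, they were Col16a1 0.012, Col4a1 0.066, Col4a2 0.0026, Mmp15 0.038, Cd4 0.029, Epcam -0.023. With score slope over 20 tumors, they were Col16a1 0.013, Col4a1 0.055, Col4a2 0.013, Mmp15 0.0037, Cd79a -0.020, Epcam -0.028, Itgb1 -0.0041. With score slope over the 8 middle tumors, they were Ttn -1.15, Mylpf -1.86, Neb -0.73, Ryr1 -0.50, Ogn -0.45, Tnxb -0.52, Ccl6 -0.20, Clec10a -0.62, Col14a1 -0.18, Lama2 -0.095, Col4a1 0.71, Col4a2 0.72, P4hb 0.097, Nov -0.18, Mmp15 0.12, Tpm1 -0.25, Cd4 0.79, Cd79b -0.31, Mrc1 -0.092, Cd14 0.94, Cma1 -1.93, Mcpt4 -1.19, Tpsb2 -1.49, Myh2 -1.60, Acta1 -2.16, Myh4 -6.29, Sox10 0.11, Mbp 0.22, Epcam -0.015, Krt8 0.42, Spp1 0.78, Mki67 -0.45, Top2a -0.10, Ccl8 -0.042, Ccl2 -0.26, Nr4a1 0.19, Ldha 0.28, Lyve1 -1.22, Cd209f -0.89, F13a1 -0.15, Cd5l -1.17. With score from TMM log2 CPM, they were Col4a1 0.15, Col4a2 0.075, Comp 0.070, Mmp15 0.042, Cald1 -0.00026, Cd79a -0.092, Epcam -0.0041, Spp1 0.016, Mki67 -0.080. With score from Dcn, they were Col11a1 0.049, Col4a1 0.064, Comp 0.046, Mmp15 0.018, Cd79a -0.36, Oxtr -0.13, Epcam -0.0032, Csn3 -0.079, Spp1 0.030. With score from the 3 collagens, they were Col16a1 0.0090, Col4a1 0.15, Col4a2 0.056, Serpinh1 -0.032, Comp 0.050, Mmp15 0.076, Cd79a -0.0033, Cd14 0.012, Epcam -0.0033, Spp1 0.026, Mki67 -0.066, Fgfr1 0.016. With score from the fibroblast identity list, they were Col16a1 0.0090, Col4a1 0.15, Col4a2 0.056, Serpinh1 -0.032, Comp 0.050, Mmp15 0.076, Cd79a -0.0033, Cd14 0.012, Epcam -0.0033, Spp1 0.026, Mki67 -0.066, Fgfr1 0.016. With Lo or Hi as a covariate, they were Col4a1 0.0096. With score slope within the Lo tumors, they were Col4a1 0.052, Mmp15 0.0031, Cd79a -0.17, Cd14 0.063, Krt8 0.017, Spp1 0.12, Mki67 -0.034, Egln3 0.019. With score slope within the Hi tumors, they were Col16a1 0.060, Col4a1 0.055, Col4a2 0.030, Mmp14 -0.0089, Notch3 0.015, Lyz2 -0.0051, Sox10 0.020, Epcam -0.061, Csn3 -0.020, Tgfb3 -0.060, Wnt5a -0.029, Itgb1 -0.020, Gm26917 0.039, Egr1 0.036, Nr4a1 0.051. With number as a replicate block, they were Col4a1 0.13, Col4a2 0.074, P4hb 0.038, Tpm1 -0.15, Cald1 -0.030, Cd79a -0.19, Epcam -0.012, Krt8 0.12, Nr4a1 0.037. With locus share as a covariate, they were Col16a1 0.013, Mmp15 0.0084, Cd79a -0.0056, Epcam -0.0068. With skeletal muscle sum as a covariate, they were Erbb2 0.016, Ryr1 -0.17, Col16a1 0.028, Col4a1 0.20, Col4a2 0.14, Thbs1 0.15, Comp 0.024, Ltbp3 0.014, Mmp15 0.054, Tpm1 -0.077, Cald1 -0.020, Notch3 0.028, Cd4 0.34, Fabp4 -0.032, Lipe -0.078, Epcam -0.043, Mki67 -0.038, Tgfb3 -0.019, Fgfr1 0.13, Vim -0.033. Without the 2 tumors highest in skeletal muscle, they were Col16a1 0.010, Mmp15 0.026, Tpm1 -0.035, Cald1 -0.056, Epcam -0.053, Tgfb3 -0.0086, Itgb1 -0.0092. With score slope over 20 tumors with the skeletal muscle covariate, they were Erbb2 0.0023, Ryr1 -0.16, Col16a1 0.053, Col4a1 0.14, Col4a2 0.096, Serpinh1 -0.051, Mmp15 0.024, Tpm1 -0.015, Cd4 0.16, Acta1 -0.058, Sox10 0.0065, Epcam -0.059, Spp1 0.0090, Mki67 -0.063, Top2a -0.015, Fgfr1 0.037, Itgb1 -0.024. Leaving out each tumor in turn, the values of genes that changed sign ranged as follows: Col16a1 -0.13 to 0.079, Serpinh1 -0.0094 to 0.13, Ltbp3 -0.19 to 0.0045, Mmp15 -0.061 to 0.039, Fgfr1 -0.20 to 0.017, Col4a1 -0.11 to 0.16, Tpm1 -0.0024 to 0.14, Epcam -0.046 to 0.082, Cd79a -0.17 to 0.24, Lipe -0.0074 to 0.13, Cald1 -0.033 to 0.088, Col11a1 -0.16 to 0.062, Comp -0.10 to 0.12, Csn3 -0.035 to 0.12, Gas1 -0.0047 to 0.16, Mmp14 -0.0029 to 0.086, Col4a2 -0.21 to 0.068, Tgfb3 -0.0031 to 0.21, Itgb1 -0.013 to 0.097, Nr4a1 -0.18 to 0.023, Cd14 -0.46 to 0.020.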
